A study of Mus musculus with 2 samples.

Results

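The nuclear-encoded subunits of oxidative phosphorylation were compared between embryonic stem (ES) cells expressing Baf53a and ES cells expressing Baf53b. Members were the genes with array probes whose RefSeq accession maps to a symbol that starts with Ndufa, Ndufb, Ndufc, Ndufs, Ndufv, Uqcr, Cox4, Cox5, Cox6, Cox7, Cox8 or Atp5, or that equals Sdha, Sdhb, Sdhc or Sdhd. The Ndufaf genes, which encode assembly factors, were left out. The rule uses gene names and no measured value, although it was set with earlier results of these data known. It gave 114 probes of 85 genes among 39429 gene probes on each array.

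Oxidative phosphorylation takes place in the inner mitochondrial membrane. Complexes I to IV pass electrons from NADH and succinate to oxygen and, except for complex II, pump protons, and complex V, the ATP synthase, uses the proton gradient to make ATP. A few hydrophobic subunits are encoded by mitochondrial DNA, whereas the others are transcribed in the nucleus and imported. ES cells in culture draw much of their ATP from glycolysis while still transcribing these genes.

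Baf53a (gene Actl6a) is an actin-related subunit of BAF chromatin remodelling complexes, and Baf53b (gene Actl6b) takes its place in neurons. Both groups came from 1 clone of E14-derived Baf53a cKO ES cells, in which CRISPR/Cas9 had mutated both Baf53a alleles and a CRISPR-resistant Baf53a was kept on until tetracycline (Tet) shut it off. One group was transfected with a pCAGIP-Myc vector for Baf53a and the other with the same vector for Baf53b. At 48 h after transfection the cells were divided, and both groups then received 1 μg/mL Tet for 6 days in medium with LIF, the cytokine that keeps mouse ES cells undifferentiated. Each group was measured on 1 array, so the values describe these 2 arrays and were not tested against replicates.

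The arrays shared a slide and a scan. The processed signal, a brightness in arbitrary units after background subtraction, was put on a log2 scale with the 75th percentile of each array (signals of 1161 and 1128) set to 0, and a difference is the Baf53b-expressing minus the Baf53a-expressing array. As a check of the labels, Actl6b transcript had a signal of 119 with Baf53b and of 3.40, not well above background, with Baf53a, and was at least 14.5-fold higher with Baf53b. The Actl6a probe read 3806 and 3600, and whether it separates the mutated from the introduced transcript was not examined. All 13 probes of 10 ES cell marker genes were well above background on both arrays, with summed signals of 403602 and 379496. This sum and those below were not scaled between the arrays. Of the 13 probes, 9 were lower in Baf53b-expressing cells and 4 higher, with a median of -0.08. After cyclic loess 8 of the 13 were lower, with a median of -0.03. All 9 probes of 7 primitive endoderm markers were higher in Baf53b-expressing cells (median 0.29, or 0.23 after cyclic loess), with summed signals of 3124 and 3637, and of the 6 fibroblast marker probes 4 were higher (median 0.13, or 0.09 after cyclic loess), with sums of 1470 and 1395 in which Thy1 (-0.15) was the brightest. The part of these marker differences in the results below was not tested, and in bulk RNA fewer cells of a type cannot be told apart from less RNA per cell.

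Nearly all subunit genes were expressed in both groups. Of the 114 probes, 113 were well above background on both arrays, compared with 74.2% of all probes, and these 113 probes represented 84 genes. The exception was Cox8b, the heart and muscle isoform of subunit 8 of cytochrome c oxidase, whose signals of 4.01 and 7.24 were not well above background on either array. In brightness, 104 of the 113 probes fell in the brightest 20% of the 29247 probes measured on both arrays.

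No subunit probe was 2-fold apart between the arrays. The background for this count was 74 of 29247 probes, or 0.253%, with 0.137% higher and 0.116% lower in Baf53b-expressing cells. The differences were small and leaned one way: 105 of 113 probes (92.9%) were lower in Baf53b-expressing cells, where 50.3% of all probes were lower. The median difference was -0.09 on the log2 scale (-6.35%), with quartiles of -0.14 and -0.06 and a range from -0.59 for Ndufs7 to 0.30 for a dim probe of Ndufb11. Counted by gene, 79 of 84 had a mean below 0 and 5 a mean above 0.

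Bright probes as a whole also lay lower on the Baf53b array. The median over all probes went from 0.10 in the dimmest 20% through 0.05, 0.02 and -0.02 to -0.06 in the brightest 20%. Within the brightest 20%, 75.8% of all probes were lower, beside 99 of 104 subunit probes, and the medians were -0.0625 for probes outside the members and -0.0962 for the members. Within the brightest 5%, 78.0% of all probes and 49 of 49 subunit probes were lower.

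**Figure D1:**
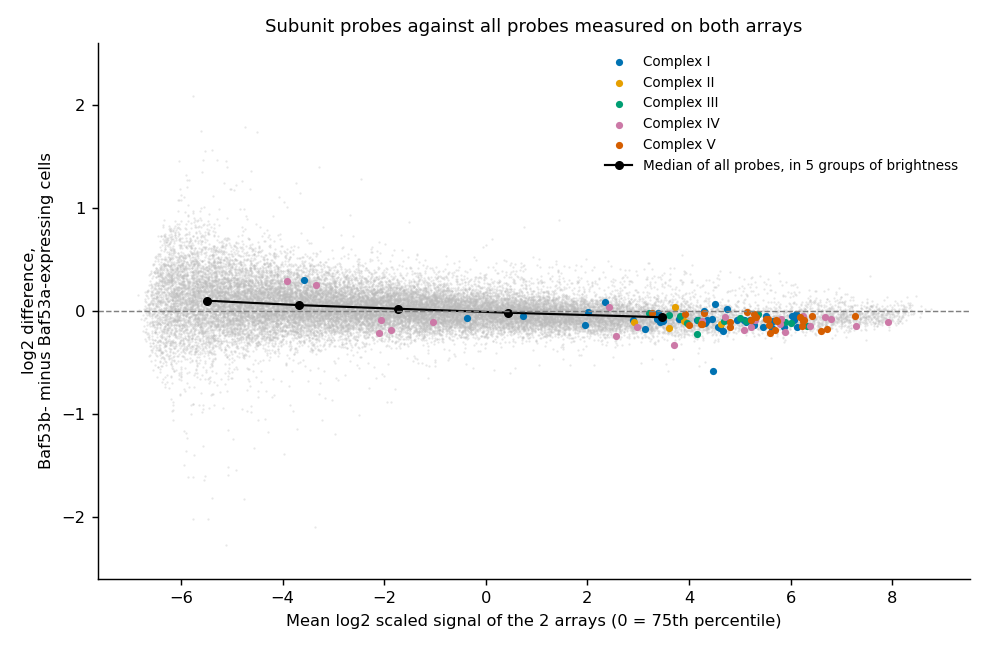
Log2 difference (Baf53b- minus Baf53a-expressing cells, vertical axis) against the mean log2 scaled signal of the 2 arrays (horizontal axis) for 29247 probes, 1 grey point each, with subunit probes coloured by complex and black points joined by a line for the medians of 5 groups of brightness. The black line runs from 0.10 at the dim end to -0.06 at the bright end, and most of the 104 bright subunit probes lie below it or near it.

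The size of the shift depended on the scaling between arrays. After quantile normalization, which gives both arrays the same distribution of values, the members' median was -0.04 with 85 lower and 27 higher. After cyclic loess, which removes trends with brightness, it was -0.03 with 83 lower and 30 higher. In the brightest 20%, 77 of 104 subunit probes were then lower beside 53.2% of all probes there.

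**Figure D2:**
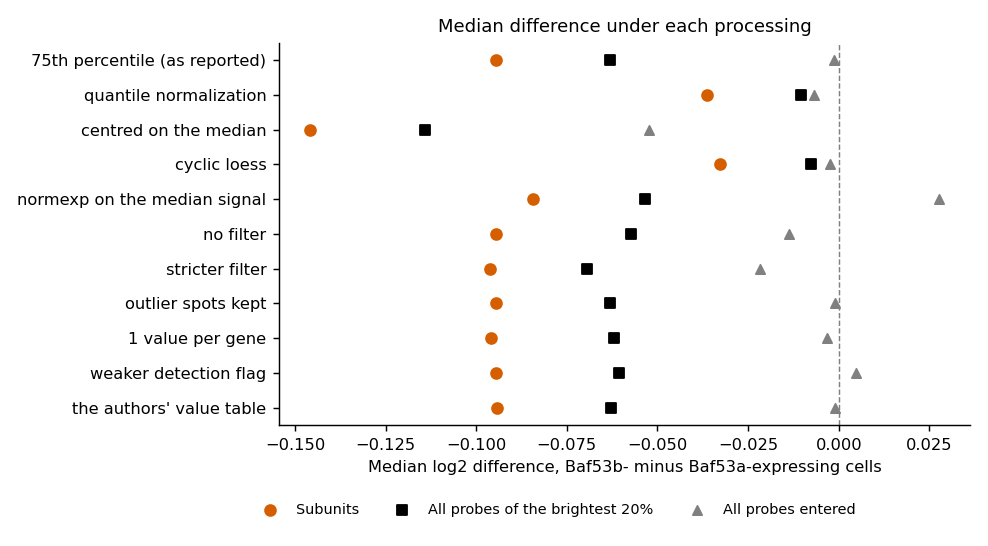
Median log2 difference (Baf53b- minus Baf53a-expressing cells, horizontal axis) of the subunit probes (circles), all probes of the brightest 20% (squares) and all probes entered (triangles) under the reported scaling and 10 other processings (vertical axis). The subunit median lies below the other medians in every row, between -0.15 when arrays are centred on the median and -0.03 after cyclic loess.

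The only error these arrays hold is the spread between spots of the same probe, which leaves out culture, labelling and hybridisation. Taken from probes printed as several spots, the SD of a difference was 0.0590 in the brightest 20% and 0.274 in the dimmest. By this measure 38 of 113 subunit probes (33.6%) were lower by over 2 spot SDs, beside 11.3% of all probes and 25.0% of the brightest 20%. That count was 13 (11.5%) after quantile normalization or cyclic loess, beside 9.45% and 9.23% of all probes, and 1 after normexp background correction, beside 0.486%. Over the brightest 20% these 3 shares were 9.30%, 9.49% and 0.205%. Only 3 subunit probes were higher by that margin, beside 11.1% of all probes. All 3 were dim, and in the brightest 20% there were 0, beside 5.73% of all probes.

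One subunit, Uqcrc2, was printed as 10 spots and shows the spot error directly. Uqcrc2 is a core protein of complex III. Its 10 spots read between 20410 and 22432 (median 21749.5) on the Baf53a array and between 19165 and 20215 (median 19769) on the Baf53b array. On the scaled log2 values the spots ran from 4.14 to 4.27 and from 4.09 to 4.16, so that the arrays overlapped at their edges, and the scaled difference of the probe was -0.09. The other 113 member probes were single spots, none marked as an outlier.

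Complex I, the NADH dehydrogenase, is the entry point for electrons from NADH. Its 42 probes of 36 genes had a median of -0.09 (-0.0924), and 38 were lower in Baf53b-expressing cells, or 32 after quantile normalization or cyclic loess. The 7 nuclear core subunits of complex I, which hold the flavin and iron-sulphur clusters or shape the quinone pocket, had a median of -0.10. The 35 probes of accessory subunits, which surround the core, had one of -0.09.

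Ndufs7, the core subunit with the last iron-sulphur cluster before ubiquinone, had the widest difference of all members. Its signal was 31611 with Baf53a and 20450.4 with Baf53b, a scaled difference of -0.59 or 0.666 times. Among the 5850 probes of the brightest 20% this was the second lowest difference. It ranged from -0.64 to -0.51 over the processings tried. The value rests on 1 spot per array.

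Other core subunits had smaller differences. Ndufs8, which carries iron-sulphur clusters beside Ndufs7, read 4721 and 4153, a difference of -0.14. Ndufs3, a subunit of the matrix arm, read 24011 and 21430.3 (-0.12).

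The NADH-oxidizing end of the complex was close to the members' median. Ndufv1, which binds NADH and flavin, read 60466 and 54907 (-0.10). Its partner Ndufv2 read 26311 and 24121 (-0.08), and Ndufs1, the largest core subunit, read 24352 and 22225 (-0.09). These 3 differences became -0.03, -0.01 and -0.01 after quantile normalization.

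Among accessory subunits of complex I, Ndufb3 of the membrane arm had the lowest difference, at 31437 and 26736 (-0.19). Ndufb11, encoded on the X chromosome, was the only gene of the 22 with several measured probes whose probes were all higher. Its dim probe read 87.4 and 104 (0.30) and its bright probe 25860.2 and 26347 (0.07). The spread of 0.23 between them was the widest for any member gene, against a median spread of 0.07.

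Probes of 1 gene could also part in sign or size. For Ndufa5, of the matrix arm, signals of 30957 and 30512.6 (0.02) stood beside 8885 and 8083 (-0.09). For Ndufb6, they were 22694 and 21995 (-0.00325) and 23870.3 and 21509 (-0.11). After quantile normalization the mean of each gene turned to 0.03, so neither has a settled sign. All other accessory probes of complex I were lower, from Ndufa8, which lies on the intermembrane side, at 10829 and 9312 (-0.18) to 1 probe of Ndufb5 at 4678 and 4491 (-0.02). Between them lay Ndufab1, the mitochondrial acyl carrier protein, at 1958 and 1833 (-0.05), and Ndufs4, needed for a stable matrix arm, at 12219 and 11696.5 (-0.02).

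Complex II, succinate dehydrogenase, links the citric acid cycle to the chain and is the one complex encoded wholly in the nucleus. Its 6 probes had a median of -0.11 (-0.06 after cyclic loess). Sdha, the flavoprotein that oxidizes succinate, stood apart from the other 3 genes, with nearly equal signals of 15185 and 15169 and a scaled difference of 0.04. That sign turned when arrays were centred on their medians (-0.01).

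The iron-sulphur subunit Sdhb was lower at both probes, with signals of 9062 and 8136 (-0.11) and of 30056 and 26618 (-0.13). The membrane anchors followed, Sdhc at 13207 and 12299 (-0.06) and at 15034.5 and 13026 (-0.16). Sdhd, the other anchor, read 18074 and 16354.5 (-0.10). All 5 probes of these anchors and Sdhb were lower in Baf53b-expressing cells.

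Complex III, the cytochrome bc1 complex, passes electrons from ubiquinol to cytochrome c, and all 14 of its probes were lower, with a median of -0.10 (-0.0950). After quantile normalization 10 of 14 were lower (-0.03) and after cyclic loess 9 of 14 (-0.03). Uqcrq, a small accessory subunit at the membrane, had the lowest values, with signals of 22518 and 18693 (-0.23) and of 97744 and 85618 (-0.15). The core had a median of -0.05 over 3 probes. It included the Rieske iron-sulphur protein Uqcrfs1 at 16606 and 15554 (-0.05) and Uqcrc1 at 10826.5 and 10329 (-0.03). Uqcrc1 turned to 0.04 after quantile normalization, and Uqcrfs1, which is also the core median, to 0.00170 after cyclic loess. The other accessory genes, Uqcrb, Uqcrh, Uqcr10 and Uqcr11, ranged from -0.12 for probes of Uqcrb and Uqcr11 to -0.03 for a probe of Uqcr10, with every probe of each gene lower.

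**Figure D3:**
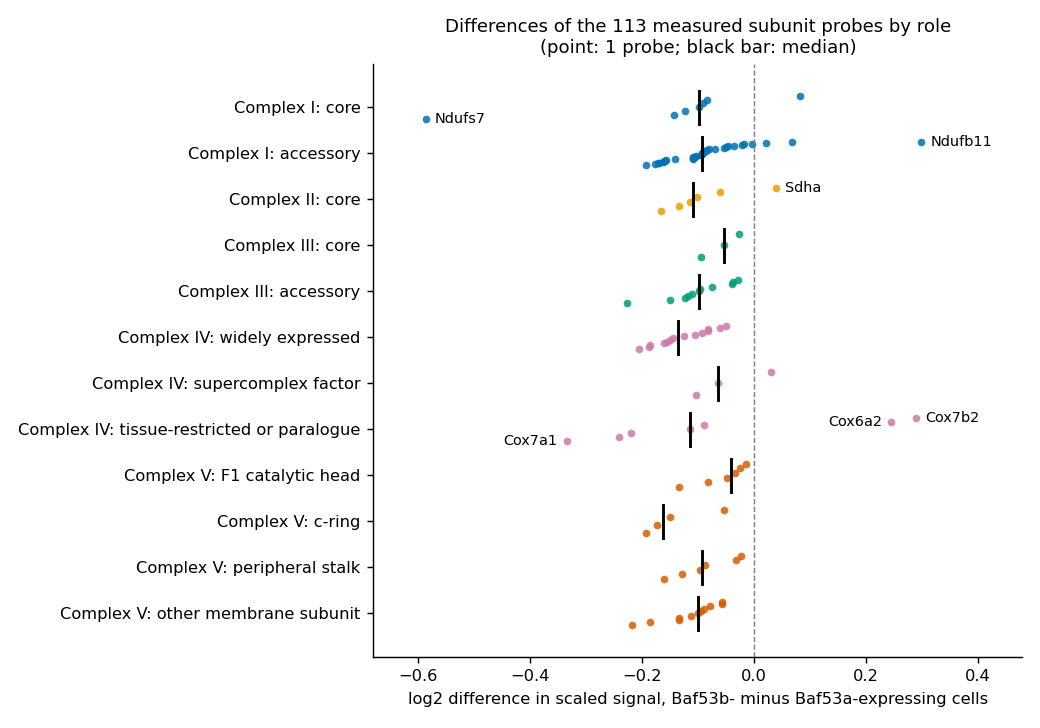
Log2 difference in scaled signal (Baf53b- minus Baf53a-expressing cells, horizontal axis) of the 113 measured subunit probes, 1 point each, by complex and role (vertical axis), with a black bar at the median of each role. Ndufs7 at -0.59 and Cox7a1 at -0.33 lie far to the left, and the points to the right of 0.2 are the dim probes of Ndufb11, Cox7b2 and Cox6a2.

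Complex IV, cytochrome c oxidase, reduces oxygen. Its widely expressed subunits were all lower, 14 of 14 probes, with a median of -0.13. The median was -0.07 after cyclic loess or quantile normalization, with 12 of 14 lower under each.

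Several nuclear subunits of complex IV exist as a widely expressed form and a form confined to certain tissues, so that each pair can be read side by side on the same arrays. For subunit 7a, the heart and muscle isoform Cox7a1 read 16940 with Baf53a and 13054 with Baf53b, a difference of -0.33 or 0.793 times. Cox7a2, the isoform of most tissues, read 41925 and 35755 (-0.19). Cox7a1 ranked 21 from the lowest among the 5850 brightest probes and ranged from -0.39 to -0.28 over the processings, and it, too, rests on 1 spot.

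For subunit 6b, the testis isoform Cox6b2 read 7413 and 6091 (-0.24). The widely expressed Cox6b1 read 9672 and 8411 (-0.16). All 4 of these were lower in Baf53b-expressing cells by over 2 spot SDs with the reported scaling. Cox6b1 was within that limit after quantile normalization (-0.09) and cyclic loess (-0.11), and all 4 were within it after normexp.

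In other pairs the dim, tissue-restricted form went the other way. For subunit 6a, the heart and muscle isoform Cox6a2 read 105 and 120 (0.25), whereas Cox6a1 read 289959 and 261723 (-0.11). For subunit 7b, the testis isoform Cox7b2 read 69.4 and 82.4 (0.29), whereas Cox7b read 66929 and 61405 (-0.08). Both higher forms lay in group 2 of the 5 groups of brightness, counted from the dimmest, where the median of all probes was 0.05 and 2 spot SDs came to 0.24.

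In the remaining pairs both forms were lower. Cox4i2, the lung form of subunit 4, read 286 and 261 (-0.09), and Cox4i1, the common form, 191725 and 167840 (-0.15). Cox8c, a testis form of subunit 8, read 587 and 527 (-0.11), and the 2 probes of Cox8a had differences of -0.14 and -0.08. Ndufa4l2, known for its induction by hypoxia, read 293 and 245 (-0.22), and its common paralogue Ndufa4 47199 and 43000.5 (-0.09). With the reported scaling Ndufa4l2 and Cox4i1 were beyond 2 spot SDs, whereas Cox4i2, Cox8c and Ndufa4 were not, and Cox4i1 was at -0.07 after cyclic loess.

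Of the other complex IV genes, Cox5b, the zinc-binding subunit, read 74213 and 62551 (-0.20), the lowest value among the widely expressed subunits. Cox7c had 3 probes of very unequal brightness that gave differences of -0.19, -0.15 and -0.13. Cox6c, the highest of the widely expressed set, read 89298 and 83800.2 (-0.05), and Cox5a 121508 and 113140 (-0.06). Cox7a2l, which joins complexes III and IV into supercomplexes, had 3 probes that did not share a sign. They had differences of -0.10, -0.06 and 0.03, and the mean turned to 0.02 after quantile normalization.

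Complex V makes ATP, and all 27 of its probes were lower, with a median of -0.09. After quantile normalization 20 of 27 were lower (-0.03) and after cyclic loess 18 of 27 (-0.03). All 27 lay in the brightest 20%, where 75.8% of all probes were lower (median -0.06), or 54.4% and 53.2% after these 2 scalings. The parts of complex V differed in size. The catalytic F1 head, which protrudes into the matrix, had a median of -0.04 over 6 probes. The ring of c subunits in the membrane, which turns as protons pass, had one of -0.16 over 4 probes. The peripheral stalk, which holds the head still, stood at -0.09 (6 probes) and the other membrane subunits at -0.10 (11 probes). After cyclic loess the F1 head was at 0.03 and the c-ring at -0.09, so the sign of the F1 head depended on the scaling, and the difference between these parts was not tested.

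In the F1 head, the alpha subunit Atp5a1 read 41120 and 39563 (-0.01) and the beta subunit Atp5b, which holds the catalytic sites, 182137 and 171163 (-0.05). After cyclic loess these were 0.05 and 0.03, and Atp5a1 was also above 0 after quantile normalization (0.03) and normexp (0.00668). The probes of Atp5c1, the gamma subunit of the central shaft, had differences of -0.03 and -0.03, and 0.03 as a mean after quantile normalization. The delta subunit Atp5d, at 19443 and 17214 (-0.13), and the epsilon subunit Atp5e, at 56147 and 51563 (-0.08), stayed below 0 under all processings.

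The c-ring subunit is made as 1 mature protein from 3 genes. Atp5g1 read 90844 and 79510.5 (-0.15), and Atp5g3 read 129575 and 111592 (-0.17). Atp5g2 had probes at 120247 and 102159 (-0.19) and at 101020 and 94523 (-0.05). Atp5k, the e subunit that helps ATP synthase form dimers, had the lowest value of the complex, at 60226 and 50300.8 (-0.22), with its other probe at 64061 and 54721 (-0.19). Atp5l, the g subunit beside it, was read by 5 probes, more than any other member, and their differences ran from -0.13 to -0.06.

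The peripheral stalk also held values from low to near 0. Atp5j, the coupling factor, read 34299 and 29807 (-0.16), and Atp5o, which ties the stalk to the F1 head, 23321 and 20727 (-0.13). Both probes of Atp5h, the d subunit, were lower (-0.09 and -0.10), as were both of Atp5pb, the b subunit (-0.03 and -0.02).

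Of the 22 genes with 2 or more measured probes, 19 had every probe lower, 2 had probes of both signs and 1 had every probe higher. Because 92.9% of all subunit probes were lower, this count cannot show how closely probes of 1 gene agree. The median spread between probes of a gene was 0.07, beside a median of -0.10 for the gene means. For 10 members, among them Atp5k, Cox5b and Cox7c, the gene table lists a pseudogene named after the gene, and whether those probes also bind such transcripts was not examined.

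Genes that build, feed or regulate the chain gave a mixed picture beside the subunits. Assembly factors lay as low as the subunits, with 14 of 18 probes lower for complex I (median -0.07), 14 of 16 for complexes II, III and V (-0.09) and 22 of 27 for complex IV (-0.09), and after cyclic loess their medians were -0.07, -0.10 and -0.07. The complex IV list ran from Surf1 (-0.23), which takes part in haem insertion, to a dim probe of Cox16 (53.2 and 68.9, 0.41), which helps to assemble the catalytic core. The bright probe of Cox16 read 7661 and 6986 (-0.09). Electron carriers and related genes, such as those of cytochrome c and coenzyme Q synthesis, had 12 of 21 probes lower (-0.02), and 9 of 21 with a median of 0.01 after cyclic loess. Citric acid cycle enzymes had 14 of 21 lower (-0.03), and 6 of 21 with a median of 0.02 after cyclic loess.

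The regulators of mitochondrial biogenesis did not lean the same way. Of 18 probes, 7 were lower and the median was 0.03. This list ran from Polrmt, the mitochondrial RNA polymerase, at -0.13 to Nrf1, a transcription factor of many respiratory genes, at 0.21 for its dimmest probe and 0.11 and 0.03 for its other probes. Uncoupling proteins and ADP/ATP carriers had 8 of 11 probes lower (-0.06), and 5 of 11 with a median of 0.00174 after cyclic loess. No probe was named for a subunit encoded by mitochondrial DNA, and those transcripts were not analysed here.

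Other abundant housekeeping groups were also lower at most of their probes. Mitochondrial ribosomal proteins had 85 of 99 probes lower (median -0.10), proteasome subunits 41 of 47 (-0.10) and cytoplasmic ribosomal proteins 132 of 170 (77.6%, median -0.06). For the last group, with 156 of 170 probes in the brightest 20%, this was close to the 75.8% and the median of -0.06 of all probes there, and 78 of 170 were lower after cyclic loess. After cyclic loess the medians were -0.05, -0.05 and 0.01, beside -0.03 for the oxidative phosphorylation subunits. With the reported scaling, lower values in Baf53b-expressing cells were therefore also seen outside the respiratory chain.

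**Figure D4:**
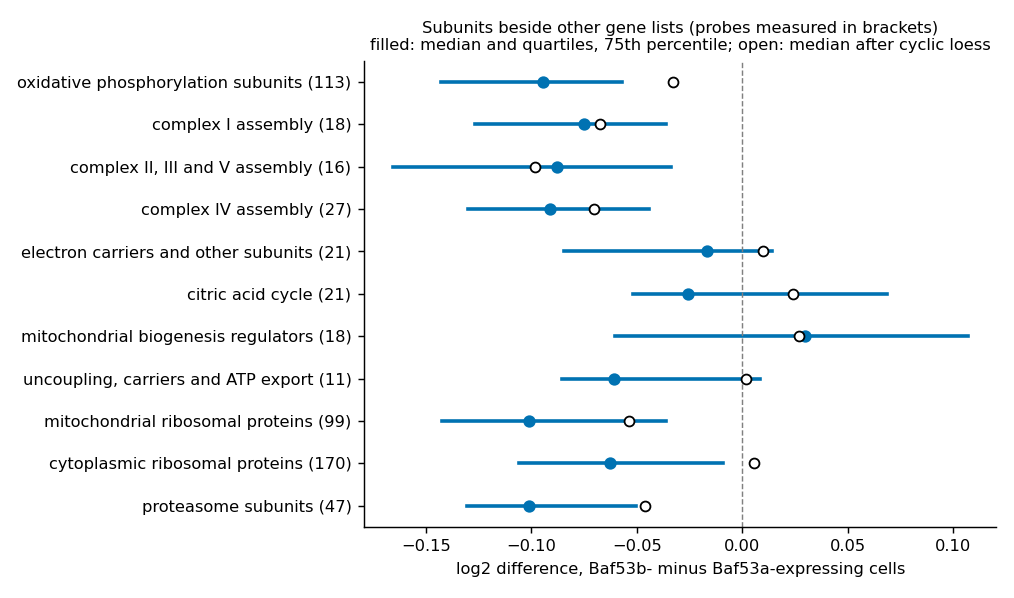
Median log2 difference (Baf53b- minus Baf53a-expressing cells, horizontal axis) of the subunits and 10 other gene lists (vertical axis, probes measured in brackets). Filled points with bars show the median and quartiles with the 75th percentile scaling, and open points the median after cyclic loess. Mitochondrial ribosomal proteins and proteasome subunits sit beside the subunits near -0.10, and biogenesis regulators at 0.03.

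Promoters of the members were read for the letters of transcription factor motifs known from respiratory genes. RefSeq windows of assembly GRCm38.p6, from 250 bases before to 50 after a transcription start, were found for 69 of the 85 members. Both strands were searched for NRF1 (GCGCA, then any base, then GCGC), the ETS family including GABP (CCGGAAG), YY1 (AANATGGCG), Sp1 (GGGCGG) and the CCAAT box (CCAAT), and overlapping matches were all counted. The 250 upstream bases are given for 4 members that the results turn on, namely the subunits with the lowest differences in complexes I, IV and V and Sdha, which did not share the direction of its complex. Capitals mark any of these motifs on either strand, and each sequence runs 5′ to 3′ on the strand of the gene.

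Ndufs7 (chr10:80249199-80249448, plus strand), with no match upstream of the start:
Ndufs7: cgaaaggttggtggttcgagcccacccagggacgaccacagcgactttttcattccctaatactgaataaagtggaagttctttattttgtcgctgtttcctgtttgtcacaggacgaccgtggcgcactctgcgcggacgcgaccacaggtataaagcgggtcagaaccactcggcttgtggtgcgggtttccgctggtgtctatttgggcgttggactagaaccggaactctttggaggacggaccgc
Cox7a1 (chr7:30183921-30184170, plus strand), with 2 reversed CCAAT boxes:
Cox7a1: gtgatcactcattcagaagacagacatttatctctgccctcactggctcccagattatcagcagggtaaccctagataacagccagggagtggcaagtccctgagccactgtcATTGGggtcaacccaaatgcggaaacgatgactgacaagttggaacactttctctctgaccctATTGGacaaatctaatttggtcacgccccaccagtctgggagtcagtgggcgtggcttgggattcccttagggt
Atp5k (chr5:108434400-108434649, minus strand), with 1 NRF1 motif near the start:
Atp5k: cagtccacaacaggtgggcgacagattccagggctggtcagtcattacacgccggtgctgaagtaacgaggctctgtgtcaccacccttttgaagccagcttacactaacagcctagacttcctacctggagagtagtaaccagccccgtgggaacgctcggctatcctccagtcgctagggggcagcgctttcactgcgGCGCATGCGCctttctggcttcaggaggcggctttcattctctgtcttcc
Sdha (chr13:74350241-74350490, minus strand), with 3 NRF1 motifs and 1 reversed CCAAT box:
Sdha: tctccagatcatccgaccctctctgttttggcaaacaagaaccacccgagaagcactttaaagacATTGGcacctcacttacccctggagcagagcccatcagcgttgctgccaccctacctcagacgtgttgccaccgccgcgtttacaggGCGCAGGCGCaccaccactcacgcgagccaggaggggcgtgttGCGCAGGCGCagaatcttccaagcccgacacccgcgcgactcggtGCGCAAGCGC

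The windows of the members held some of these letters more often than windows of all genes. NRF1 letters stood in 17 of 69 member genes (24.6%) and in 5.19% of 27025 genes. ETS letters stood in 24.6% and 9.93%, and YY1 letters in 14.5% and 2.76%. The shares for Sp1 (42.0% and 38.2%) and the CCAAT box (43.5% and 41.1%) lay closer together. At least 1 of the NRF1, ETS and YY1 motifs was found in 38 of the 69 genes. The share of all genes with at least 1 of them was not computed, so this count has no background. Member windows were also richer in G and C, with a median of 57.5% against 52.7%, and the part of base composition in these shares was not tested.

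**Figure D5:**
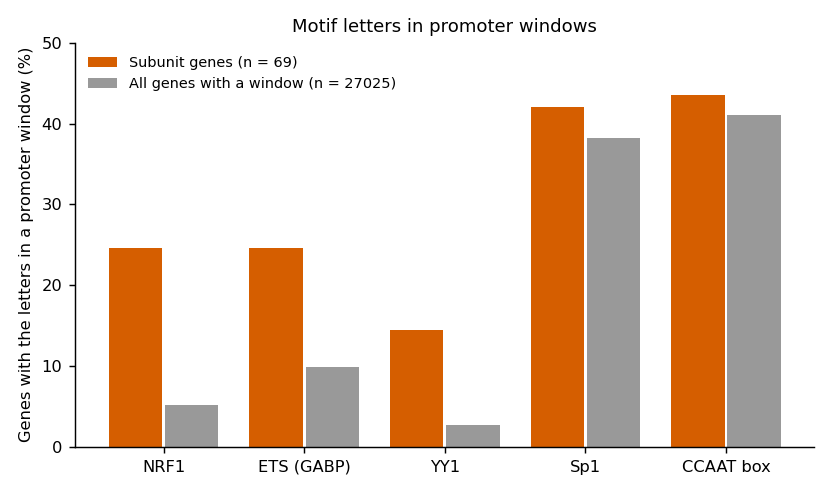
Share of genes (%, vertical axis) with the letters of each motif (horizontal axis) in a promoter window, for 69 subunit genes (orange) and 27025 genes with a window (grey). The orange bars of NRF1 and ETS stand at 24.6% beside grey bars of 5.19% and 9.93%.

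The differences between the arrays were then set beside the motifs, with no test. Genes with NRF1 letters had a median of -0.09 (17 genes) and measured genes without them -0.10 (51 genes). For ETS these were -0.11 and -0.09, and for YY1 -0.09 and -0.10. Motifs were counted here over the whole window. Ndufs7 is thus among the YY1 genes and Atp5k among the ETS genes, by matches that reach past the start. Sdha and Atp5k both carry NRF1 letters, yet had differences of 0.04 and, as a mean of 2 probes, -0.20. A match is a description of letters, and binding of these factors was not measured.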

How the data were processed

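Total RNA of Baf53a-expressing and Baf53b-expressing Baf53a cKO ES cells was hybridised by the authors to 1-colour mouse arrays, 1 per group, with a design annotated on mm9. Spot intensities were deposited by the authors as processed signals of Agilent Feature Extraction 11.0.1.1, background-subtracted and not normalized between arrays, with flags per spot. A deposited table of ratios for 30488 probes equalled, within 0.1%, each processed signal divided by 1 number per array, and served as an alternative.

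Control spots and outlier spots were left out. For each probe the mean log2 signal of its spots was taken, and each array was shifted to put its 75th percentile at 0. A probe counted as measured where at least 50% of its spots on both arrays were flagged well above background. Accessions were matched to symbols in a RefSeq table of GRCm38.p6, used for names and promoter windows only. Spot SDs came from probes with at least 5 spots.

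Members, gene lists, roles and motifs were chosen with earlier results of these data known. Genes named were the 10 widest differences in each direction, core and F1 subunits, isoform pairs and the 5 genes with the widest spread between probes. For pathway lists, named genes were the lowest and highest member. Other members were named after their values were seen, to complete a complex. Values of some single genes are not given. Python 3.11.15 (numpy 2.4.6, pandas 2.3.3) and R 4.3.3 with limma 3.58.1 were used, and the steps were tested on simulated data. The simulated subunit shift was larger than the median seen here, so recovery of a shift this small was not tested. The number of arrays limits the precision.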

Additional observations from a re-analysis of the deposited data

How the results depend on the processing

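With 10 other processings, the count of subunit probes at least 2-fold apart was 0 each time. Over all probes it was 74 of 29247 as reported, 2 of 29247 after normexp and 2 of 19463 with the stricter filter. With no filter it was 1337 of 39411. Where so few probes passed, a count of 0 is not particular to the subunits. The count of probes lower by over 2 spot SDs, 38 as reported, was 13 after quantile normalization, 78 with arrays centred on their medians, 13 after cyclic loess and 1 after normexp background correction, where the spot SD of the brightest 20% was 0.202. The shares over all probes under the same settings were 9.45%, 21.0%, 9.23% and 0.486%. Over the probes of the brightest 20%, where 104 of the 113 subunit probes lay, they were 9.30%, 48.2%, 9.49% and 0.205%. The count higher by that margin, 3 as reported, was 2 with arrays centred on their medians and 2 after cyclic loess. It was 1 after normexp, 1 with outlier spots kept, 1 with the weaker detection flag and 0 with the stricter filter. In the same order, the shares over all probes were 7.16%, 10.2%, 4.62%, 8.62%, 10.1% and 11.5%.

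The share of subunit probes lower was 75.2% after quantile normalization and 73.5% after cyclic loess, and the median was -0.0327 after cyclic loess. Medians by complex were -0.0270 (complex III) and -0.0350 (complex V) after quantile normalization, and -0.0315 (complex I), -0.0346 (complex III) and -0.0263 (complex V) after cyclic loess. By more than the spot SD of its dimmest probe, the sign turned for Atp5c1 (0.0317), Cox7a2l (0.0226), Ndufa5 (0.0302), Ndufb6 (0.0252) and Uqcrc1 (0.0422) after quantile normalization, and for Atp5a1 (0.0496) and Atp5b (0.0289) after cyclic loess. Of 42 named genes, 23 under quantile normalization and 27 under cyclic loess moved by no more than that SD, as did all those measured under the other 8 processings. Counting turns within the SD too, the sign turned for 6 genes under quantile normalization, 8 under cyclic loess, 1 under median centring (Sdha) and 1 under normexp (Atp5a1). Ndufs7 and Cox7a1 kept their sign under all 10. The cause of these changes was not tested beyond what each scaling does by construction.

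No paired analysis was possible because each group had 1 array, so leaving out a replicate was not run either. Normexp on mean signals and a slide block were not run, since the mean signal was not used here and both arrays share a slide. The brightest 5%, and medians by role and gene list under other scalings, were chosen after seeing the data. Spot noise leaves out all variation between cultures, and single-spot values such as that of Ndufs7 had no second spot on the same array.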
